A study of Mus musculus with 2 samples.

Results

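The genes described here are 9 genes of zinc handling in AML12 cells: the metallothioneins Mt1 and Mt2, the zinc sensor Mtf1, the zinc transporters Slc30a1, Slc30a5 and Slc30a7 that carry zinc out of the cytosol, and Slc39a6, Slc39a10 and Slc39a14 that carry it in. They were taken by gene symbol out of 35275 genes of the count table. The rule uses no measured value, but the 9 genes were chosen with earlier results of these data known. AML12 is a mouse hepatocyte line (CD-1 strain, male, given as 3 months of age in the labels) from a mouse with a transgene for human TGF-alpha, which the mouse metallothionein-1 promoter drives; the transgene was not analysed here. Control cells, titled Young, received no peroxide. Senescent cells, titled Old, were exposed daily for 6 days to hydrogen peroxide in medium without serum; each exposure took 1 h, the dose was 1 mM at first and 0.75 mM from the next day, and 23 h of recovery followed each time. The medium of the cultures held 10% serum, insulin, transferrin and selenium, and 100 nM dexamethasone, a synthetic glucocorticoid. RNA of 3 samples was pooled into 1 library per condition, so neither group has a replicate, no test between the conditions was possible, and every difference given below is between 2 libraries.

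Metallothioneins are small cytosolic proteins rich in cysteine that bind zinc and copper and react readily with oxidants; in the liver they are among the most inducible genes. MTF1 is a zinc-finger transcription factor that senses free zinc and binds metal response elements (MREs) in the promoters of the metallothionein genes and of Slc30a1. SLC30A proteins (ZnT) lower cytosolic zinc by export from the cell or by loading organelles, and SLC39A proteins (ZIP) raise it by uptake from outside or by release from organelles. Zinc, glucocorticoids, interleukin-6 and oxidants are all known to induce metallothioneins in hepatocytes.

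The promoter sequences of Mt1, Mt2 and Slc30a1 are shown because these 3 genes are the textbook targets of MTF1 among the genes described. They are RefSeq sequences of the reference genome (GRCm38.p6), not of the CD-1 cells, written 5′ to 3′, and the capitals mark each match to the MRE letters TGCACNC or TGCGCNC on either strand.
Mt1, 250 bases before the start, chr8:94178839-94179088, + strand: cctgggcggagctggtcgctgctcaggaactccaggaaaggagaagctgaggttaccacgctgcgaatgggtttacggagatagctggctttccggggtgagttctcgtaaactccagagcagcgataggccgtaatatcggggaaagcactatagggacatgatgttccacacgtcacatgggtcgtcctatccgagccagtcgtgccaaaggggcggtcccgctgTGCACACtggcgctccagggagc
Mt1, first bases from the start, chr8:94179089-94179117, + strand: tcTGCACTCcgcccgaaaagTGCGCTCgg
Mt2, 250 bases before the start, chr8:94172368-94172617, + strand: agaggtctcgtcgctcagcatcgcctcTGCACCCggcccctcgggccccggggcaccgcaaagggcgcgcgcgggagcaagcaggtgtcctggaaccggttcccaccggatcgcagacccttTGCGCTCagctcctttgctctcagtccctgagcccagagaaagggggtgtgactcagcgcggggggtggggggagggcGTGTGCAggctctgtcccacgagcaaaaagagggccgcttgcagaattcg
Mt2, around the motif after the start, chr8:94172620-94172630, + strand: tcGTGCGCAgg
Slc30a1, 250 bases before the start, chr1:191906531-191906780, + strand: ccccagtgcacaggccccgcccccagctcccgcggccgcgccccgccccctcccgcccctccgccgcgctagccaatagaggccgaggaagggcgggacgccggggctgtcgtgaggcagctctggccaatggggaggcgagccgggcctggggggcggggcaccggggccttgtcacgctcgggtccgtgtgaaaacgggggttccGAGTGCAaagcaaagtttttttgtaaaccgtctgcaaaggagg
Slc30a1, around the motif after the start, chr1:191906809-191906819, + strand: ccGAGCGCAgt
The Mt1 window held 3 MREs, 23 to 17 bases before the RefSeq start and 2 and 20 bases after it, and the Mt2 window held 4. Mt1 has 3 annotated transcripts, whose starts lie at 94179082, 94179211 and 94179241 on chromosome 8. All 3 MREs lie before the 2 later starts. The Mt1 window ends at 94179138, and the bases between its end and the later starts were not searched. Slc30a1 held 2 MREs and Slc30a5 held 1, while no match was found in the windows of Mtf1, Slc30a7 and Slc39a10. Of 32851 RefSeq promoter windows of the same 300 bases (250 before the start and 50 from it), 25.7% held at least 1 MRE, 6.14% at least 2, 1.31% at least 3 and 0.295% at least 4. Of the members, 7 of 9 were matched to a window; Slc39a6 and Slc39a14 were not. The antioxidant response letters TGACNNNGC, present in 12.4% of windows, were found once each in Mt2, Slc30a1 and Slc30a5, and the STAT letters TTCNNNGAA, present in 8.3%, once in Slc39a10. The Slc39a10 window with the STAT match has its RefSeq start 32924 bases before the GENCODE start of the gene. The other Slc39a10 window and the Mtf1 window lie inside those genes, after their GENCODE starts. No match of one motif overlapped a match of another in the windows of the members. Of the 7 members with a window, 4 held at least 1 MRE, as did 11 of 18 other metallothionein and zinc transporter genes. The window of Slc30a4 held 3. A match of letters is a description of the sequence and not evidence of a bound site.

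Counted reads came to 28021941 for control and 25738075 for senescent cells. Values are reads per 1000000 after TMM scaling (scaled CPM), and a log2 ratio is senescent over control. Each ratio is followed by its 95% exact interval, which covers counting error only and not the spread between cultures. Over 14383 genes with at least 10 reads the median log2 ratio was -0.02. A gene counts as higher or lower, in what follows, where the log2 ratio exceeds 1.5 in size, the fold threshold of the study, and the interval leaves out 0. Of the hepatocyte markers, Hnf4a, Krt8 and Krt18 were abundant in both libraries and lay higher in the senescent one. Their log2 ratios were 0.14, 0.51 and 0.82. Alb, by contrast, had 32076 control and 2917 senescent reads (log2 ratio -3.23, -3.28 to -3.17) and Apoa1 had 2026 and 197 (log2 ratio -3.13). Ttr had 23146 and 10486 reads (log2 ratio -0.91) and Serpina1a had 102 and 32 (log2 ratio -1.42). Trf had only 26 and 17 reads (log2 ratio -0.37, -1.36 to 0.55). Of 8 hepatocyte markers 2 were called lower, where 5.6% of all genes were. By the counting interval, 4 of the 8 lay below 0 and 3 above. In bulk RNA, fewer cells expressing a gene and less RNA of it per cell cannot be told apart.

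None of the 9 genes passed the threshold of 1.5 in either direction, where 2.71% of all genes were called higher and 5.6% lower. Mt2 came nearest and passed it with scaling to total counts, at -1.52, a scaling that shifts the median of all genes by -0.11. At a threshold of 1, Mt2 was the 1 gene of the 9 called lower and none was called higher, against 9.98% and 5.09% of all genes. By the counting interval alone, 3 genes lay above 0 (Mtf1, Slc39a6 and Slc39a10) and 5 below (Mt1, Mt2, Slc30a1, Slc30a5 and Slc39a14), and the interval of Slc30a7 held 0. At this depth 34% of all genes lay above 0 and 34.6% below by the same criterion, so an interval without 0 is common. With an added coefficient of variation of 0.1 between libraries, an assumed value, 6 of the 9 intervals left out 0 (Mt1, Mt2, Mtf1, Slc30a1, Slc39a6 and Slc39a10). With one of 0.4 all 9 held 0.

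**Figure D1:**
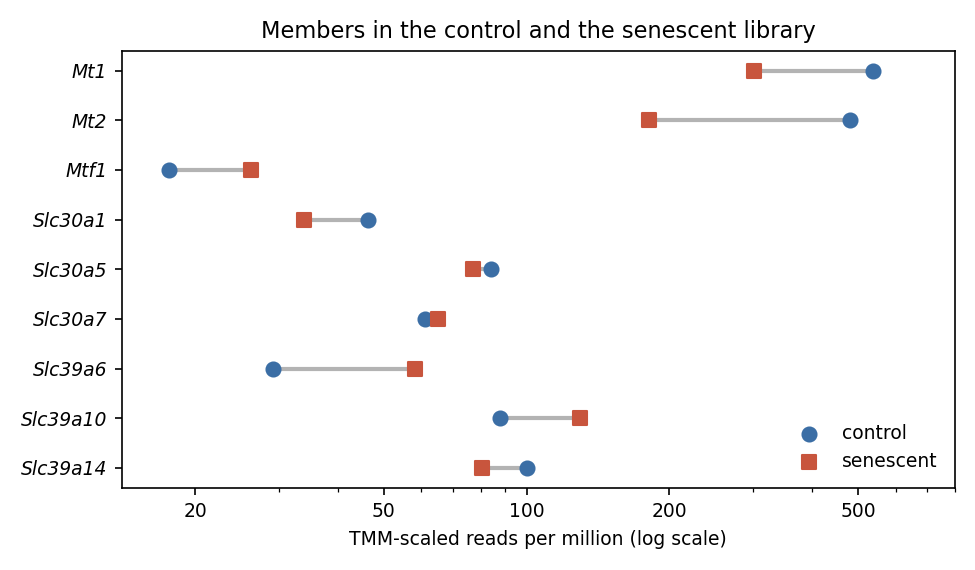
Scaled CPM of the 9 genes (log axis) in the control library (circles) and the senescent library (squares), 1 library each, joined by a line. Mt1 and Mt2 are the most abundant genes in both libraries and lie lower in the senescent one, whereas Mtf1, Slc39a6 and Slc39a10 lie higher.

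Mt1 and Mt2 had the lowest log2 ratios of the 9 genes. Mt1 (ENSMUSG00000031765, chr8:94179082-94180327, plus strand, GRCm38) had 15651 control reads and 7479 senescent reads, or 538 and 302 scaled CPM. Its log2 ratio was -0.84 (-0.88 to -0.80), and 14.1% of all genes had a lower one. Mt2 (ENSMUSG00000031762, chr8:94172664-94173568, plus strand) had 13990 and 4492 reads, or 481 and 181 scaled CPM. The senescent level of Mt2 was thus 2.66-fold below the control level, with a log2 ratio of -1.41 (-1.46 to -1.36), and 6.42% of all genes had a lower ratio. With the assumed coefficient of variation of 0.1, the interval was -1.24 to -0.43 for Mt1 and -1.81 to -1.01 for Mt2. Both genes lay lower in the senescent library, Mt2 by the larger amount.

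The balance between the 2 genes can be read within each library, where no scaling enters. Mt2 made up 47.2% of the 29641 control reads of Mt1 and Mt2 (exact interval 46.6 to 47.8%) and 37.5% of the 11971 senescent reads (36.7 to 38.4%). On the log2 scale the ratio of Mt1 lay 0.57 above that of Mt2 (0.51 to 0.64). Together the pair took 0.106% of all control reads and 0.0465% of all senescent reads. The transcripts of Mt1 and Mt2 share 79.2% identity over 192 aligned bases. Gm45774, a gene that is not in the count table, matches Mt2 at 100% identity over 212 bases. How the counting treated reads from such stretches is not given in the sources used here. Mt3 and Mt4, the brain and squamous epithelium metallothioneins, had 1 read in each library, at or under the floor of 3 reads.

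Levels per length place these genes far above the transporters. Per kilobase of merged exons, the level of Mt2 was 818 scaled CPM for control and 308 for senescent cells, and that of Mt1 was 432 and 242. Only 0.209% of all genes had a higher control level than Mt2 by this measure, and 0.556% a higher one than Mt1. The order of the 2 depends on the length used, because the exons of the Mt1 transcripts merge into 1 block of 1246 bases, against 588 bases for Mt2. By the length of the principal transcript (549 bases for Mt1 and 511 for Mt2), the control level was 980 for Mt1 and 941 for Mt2, and the senescent level 549 and 354 scaled CPM per kilobase. Under either length both genes stood above every Slc30a and Slc39a gene in both libraries.

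Mtf1 (ENSMUSG00000028890, chr4:124802104-124849800, plus strand), the zinc sensor, went the other way. It had 513 control and 650 senescent reads, or 17.6 and 26.2 scaled CPM. The log2 ratio was 0.57 (0.40 to 0.74), which lay 1.41 above that of Mt1 (1.24 to 1.58). The sensor transcript thus lay higher in the library in which the transcripts of its best known targets lay lower; protein and zinc were not measured here. Mtf1 shares 721 exonic bases, 8.09% of its length, with 1110065P20Rik on the opposite strand, and whether strand was used in counting is not given in the sources used here.

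Of 7 genes listed as MTF1 targets, 4 of which are genes already described, 2 were called lower and none higher (5.6% and 2.71% of all genes). The count called lower was 3 at a threshold of 1 and 0 at a threshold of 2. The median log2 ratio of the list was -0.84, which is the value of Mt1 itself. Ndrg1, a stress and hypoxia response gene, had 24227 control and 5630 senescent reads (log2 ratio -1.88, -1.92 to -1.83). Csrp1, a LIM domain protein, had 12821 and 3048 (log2 ratio -1.84, -1.90 to -1.79). The targets were not uniform, as Selenow, a selenoprotein, had 5392 and 4820 reads with a log2 ratio of 0.07. Slc39a10, which the list also holds although MTF1 is known to repress it, lay higher. Counting intervals placed 5 of the 7 below 0 and 2 above.

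**Figure D2:**
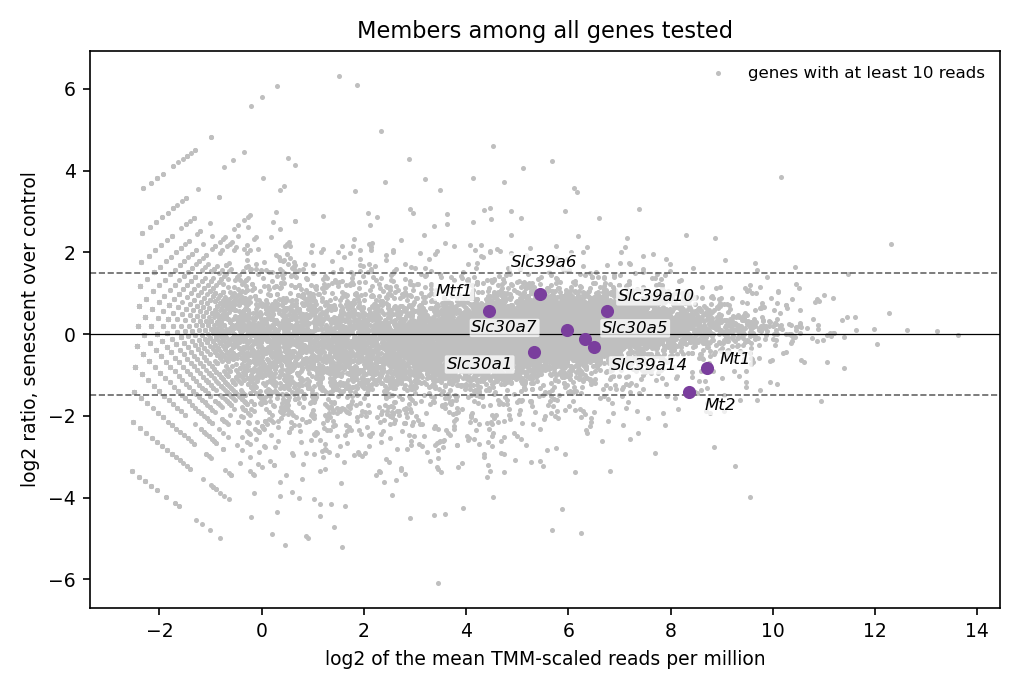
Log2 ratio of senescent over control against the log2 mean scaled CPM for all 14383 genes with at least 10 reads (grey) and the 9 genes (purple); dashed lines mark a log2 ratio of 1.5 in size. Mt2, at -1.41, lies just inside the lower line, and the transporters lie within the cloud of genes of like abundance.

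Slc30a1, Slc30a5 and Slc30a7 are the ZnT members, and their log2 ratios lay nearer to 0. Slc30a1 (ENSMUSG00000037434, chr1:191906767-191913247, plus strand), the plasma membrane exporter ZnT1, had 1347 control and 843 senescent reads, or 46.3 and 33.99 scaled CPM. With a log2 ratio of -0.45 (-0.57 to -0.32), it was the lowest of the trio. An antisense gene, 1700034H15Rik, covers 8.92% of its exons and had 67 and 38 reads. Slc30a5 (ENSMUSG00000021629, chr13:100802648-100833427, minus strand) and Slc30a7 (ENSMUSG00000054414, chr3:115938973-116007406, minus strand) encode ZnT5 and ZnT7, which load zinc into the secretory route. Slc30a5 had 2442 and 1915 reads, or 84.0 and 77.2 scaled CPM, with a log2 ratio of -0.12 (-0.21 to -0.03). Slc30a7 had 1775 and 1614 reads, or 61.0 and 65.1 scaled CPM, with a log2 ratio of 0.09 (-0.01 to 0.19), which was -0.015 with scaling to total counts. The surface exporter therefore took a smaller part of the reads of the trio in the senescent library, 19.3% (18.1 to 20.5%) against 24.2% (23.1 to 25.4%) in the control. The ratio of Slc30a7 lay 0.54 above that of Slc30a1 (0.38 to 0.70) and 0.21 above that of Slc30a5 (0.08 to 0.34).

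Among the ZIP members the difference ran in both directions. Slc39a6 (ENSMUSG00000024270, chr18:24579881-24603817, minus strand) encodes ZIP6, a plasma membrane importer known for its part in cell migration and mitosis, in partnership with ZIP10. It had 851 control and 1441 senescent reads, or 29.3 and 58.1 scaled CPM. Its log2 ratio of 0.99 (0.87 to 1.11) was the highest of the 9 genes, and 5.98% of all genes had a higher one. Slc39a10 (ENSMUSG00000025986, chr1:46807544-46892852, minus strand) encodes ZIP10, the closest relative of ZIP6. It had 2560 and 3213 reads, or 88.0 and 129.5 scaled CPM, with a log2 ratio of 0.56 (0.48 to 0.63). Both partners thus lay higher in the senescent library. Slc39a14 (ENSMUSG00000022094, chr14:70303469-70351425, minus strand) encodes ZIP14, which takes up zinc, iron and manganese in hepatocytes and is known as an interleukin-6 response gene. It had 2916 and 2002 reads, or 100.3 and 80.7 scaled CPM, with a log2 ratio of -0.31 (-0.40 to -0.23).

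Within the trio of importers the makeup of the reads differed. Slc39a6 gave 13.5% of the 6327 control reads of the trio (12.6 to 14.3%) and 21.7% of the 6656 senescent reads (20.7 to 22.7%). Slc39a14 gave 46.1% (44.9 to 47.3%) and 30.1% (29.0 to 31.2%). By reads it was thus first of the 3 in the control library, and Slc39a10 was first in the senescent one. The control order depends on length. Per kilobase of merged exons, the control level was 14.44 scaled CPM for Slc39a10 and 9.505 for Slc39a14. Per kilobase of the principal transcript it was 16.01 and 20.36. The ratio of Slc39a6 lay 1.30 above that of Slc39a14 (1.16 to 1.45) and 0.43 above that of Slc39a10 (0.29 to 0.57). Slc39a10 in turn lay 0.87 above Slc39a14 (0.76 to 0.98).

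**Figure D3:**
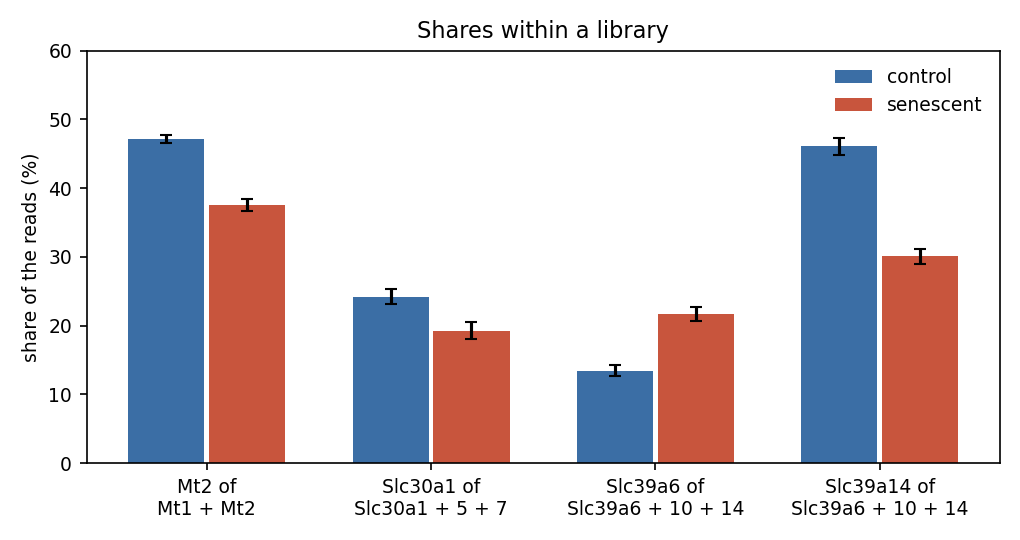
Share of reads (percent) taken by Mt2 within Mt1 and Mt2, by Slc30a1 within the ZnT trio and by Slc39a6 and Slc39a14 within the ZIP trio, in the control and the senescent library; error bars are 95% exact binomial intervals and cover counting error only. The senescent share is lower for Mt2 (37.5% against 47.2%), Slc30a1 and Slc39a14, and higher for Slc39a6.

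The other genes of both transporter families showed how far the 6 transporters stand for their kind. Of 10 Slc30a genes, Slc30a3, Slc30a8 and Slc30a10 had no read in either library (floor of 3 reads, 0.103 scaled CPM for control and 0.121 for senescent cells), and 7 reached 10 reads, with a median log2 ratio of -0.12. Slc30a4, an endosomal and lysosomal transporter, had 2193 and 2704 reads, at a log2 ratio of 0.53 (0.45 to 0.61). Slc30a6, the partner of ZnT5, had a log2 ratio of -0.16 and Slc30a9, a mitochondrial transporter, of 0.12. The only ZnT gene called lower, Slc30a2, rests on 11 control reads and 1 senescent read (log2 ratio -2.42, -8.66 to -0.45). No ZnT gene was called higher. Over all genes, 5.6% were called lower and 2.71% higher. Summed per kilobase of merged exons, the level of the family was 53.5 scaled CPM for control and 56.3 for senescent cells.

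Of 14 Slc39a genes 11 reached 10 reads, with a median log2 ratio of 0.02 (-0.085 with scaling to total counts). None of the 11 was called higher or lower, against 2.71% and 5.6% of all genes. Of their intervals, 4 lay above 0, 2 below, and 5 held 0. Slc39a4, the importer of dietary zinc in the intestine, was the lowest of these, with 2691 control and 1553 senescent reads and a log2 ratio of -0.56 (-0.66 to -0.47). Slc39a1, a widely expressed surface importer, had 3686 and 3537 reads (log2 ratio 0.17) and was the highest transporter per length, at 53.6 and 60.3 scaled CPM per kilobase. Slc39a9 had a log2 ratio of 0.35 (0.24 to 0.45), Slc39a3 of 0.09, and Slc39a11 and Slc39a13 of 0.02 and 0.01. Slc39a7, which releases zinc from the endoplasmic reticulum, had 89 and 67 reads, but 80.7% of its exonic bases are shared with Gm20427 on the same strand, so that its count is uncertain. Slc39a2 had 7 and 5 reads, Slc39a5 had 5 and 3, Slc39a8 had 8 and 1, and Slc39a12 had none. The summed level of the family was 146.7 scaled CPM per kilobase for control and 157.6 for senescent cells. By this measure Slc39a6, at 7.19 and 14.3 scaled CPM per kilobase, stood at rank 12 in the control and rank 8 in the senescent library among all metallothionein and zinc transporter genes. By the length of the principal transcript it stood at rank 15 and rank 10.

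**Figure D4:**
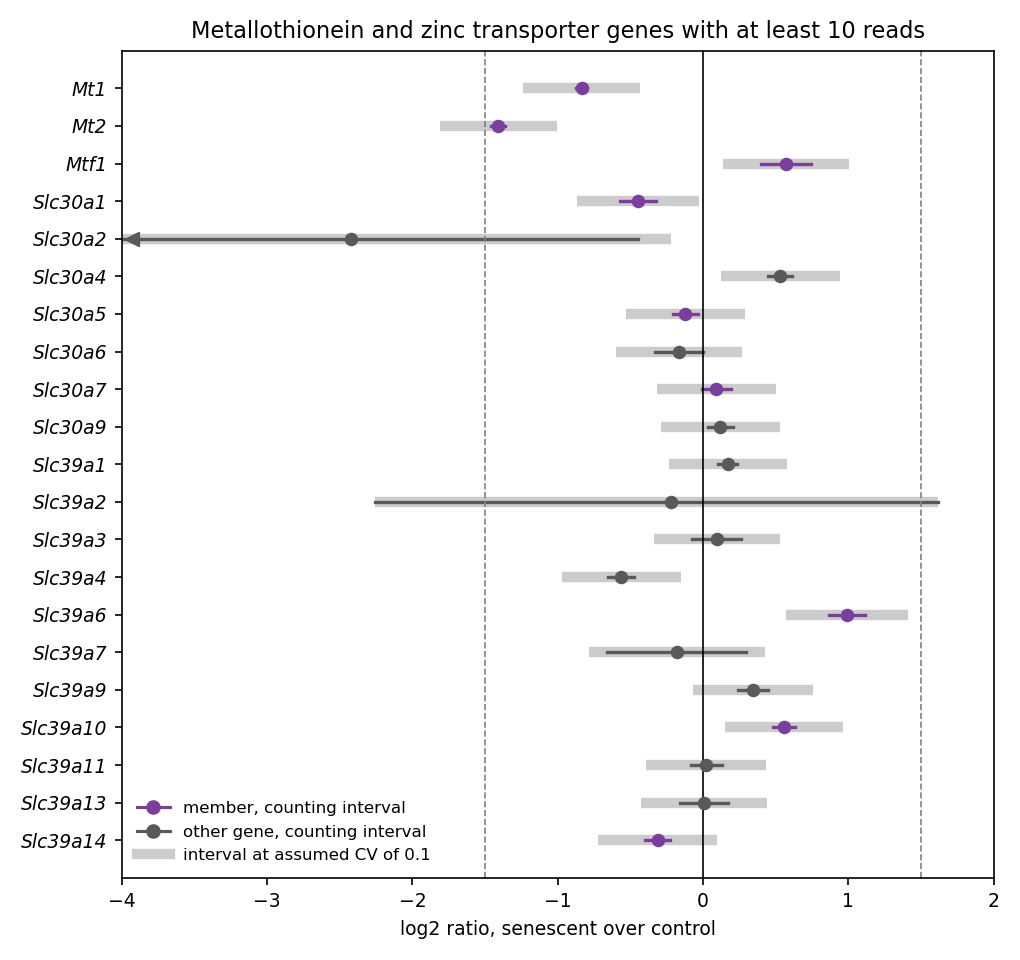
Log2 ratio of senescent over control for the members (purple) and the other metallothionein, Slc30a and Slc39a genes with at least 10 reads (grey), with the 95% counting interval and, as a pale bar, the interval at an assumed coefficient of variation of 0.1; dashed lines mark 1.5 in size and the arrow an interval that runs past the axis. Mt2 and Mt1 lie lowest apart from Slc30a2, which rests on 12 reads, and Slc39a6 lies highest.

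The genes around the metallothionein cluster on chromosome 8 were read as a local comparison. Of the genes in the count table, 6 lie with their whole body within 100 kb of the cluster, Mt1 to Mt4 included, and 4 of them reached 10 reads. Genes that run past this window were left out, and none of the 6 lies beyond Mt1. Ogfod1, a prolyl hydroxylase of ribosomal protein uS12, had 871 and 1137 reads, at a log2 ratio of 0.61 (0.49 to 0.74). Bbs2, a subunit of the ciliary BBSome, had 376 and 155 reads, with a log2 ratio of -1.04 (-1.33 to -0.78). These neighbours lie on the Mt4 side of the cluster only, and their log2 ratios lay on both sides of 0. Among 764 genes with reads within a factor of 2 of its own, those with the ratio nearest to that of Mt1 were Cyb5a (-0.83), Sh3bgrl (-0.81) and Id2 (-0.80). For Mt2, among 1016 such genes, they were Tmem176a (-1.41), Slco3a1 (-1.41) and Pdia4 (-1.37). Likeness here is the distance between log2 ratios over 2 libraries.

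Gene lists of the known inducers of metallothioneins were read beside them. Of 10 glucocorticoid targets with at least 10 reads, 4 were called lower and none higher (5.6% and 2.71% of all genes), with a median log2 ratio of -0.48. Those called lower were Lcn2, a siderophore-binding lipocalin (4293 control and 125 senescent reads, log2 ratio -4.86), Zbtb16, a transcription factor (1081 and 146, -2.65), Ddit4, an inhibitor of mTOR signalling (11394 and 2096, -2.21), and Dusp1, a MAP kinase phosphatase (1684 and 464, -1.63). Counting intervals placed 7 of the 10 below 0 and 2 above. The 2 above were those of Fkbp5, a chaperone of the glucocorticoid receptor (log2 ratio 0.41), and Sgk1, a kinase (0.09).

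Among 8 IL-6 and STAT3 genes with at least 10 reads, 3 were called lower and none higher (5.6% and 2.71% of all genes), with a median log2 ratio of -0.90. They were the acute phase genes Saa3 (626 control and 7 senescent reads, log2 ratio -6.08) and Hp (2886 and 88, -4.79), and Lcn2, which stands in both lists. Counting intervals placed 5 of the 8 below 0 and 1 above. Il6ra and Il6st, the receptor chains for interleukin-6, had log2 ratios of -0.92 and -0.89, whereas Stat3 was at 0.01 and Socs3, a feedback inhibitor that STAT3 induces, had 893 and 913 reads with a log2 ratio of 0.26 (0.13 to 0.40). Of 9 NRF2 targets, the oxidant response genes, 1 was called higher and none lower (2.71% and 5.6% of all genes), with a median log2 ratio of 0.86. The count was 4 higher at a threshold of 1, 0 at a threshold of 2 and 2 with a prior count under 1. Counting intervals placed 7 of the 9 above 0 and 1 below. The gene called at 1.5 was Slc7a11, the cystine importer, with 256 control and 874 senescent reads (8.80 and 35.2 scaled CPM, interval of the log2 ratio 1.80 to 2.21). Txnrd1, thioredoxin reductase, had 4905 and 10421 reads (log2 ratio 1.32), and Gclm, a subunit of the enzyme that starts glutathione synthesis, had 5485 and 3450 (log2 ratio -0.44). The part of each list in the values of Mt1 and Mt2 was not tested.

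**Figure D5:**
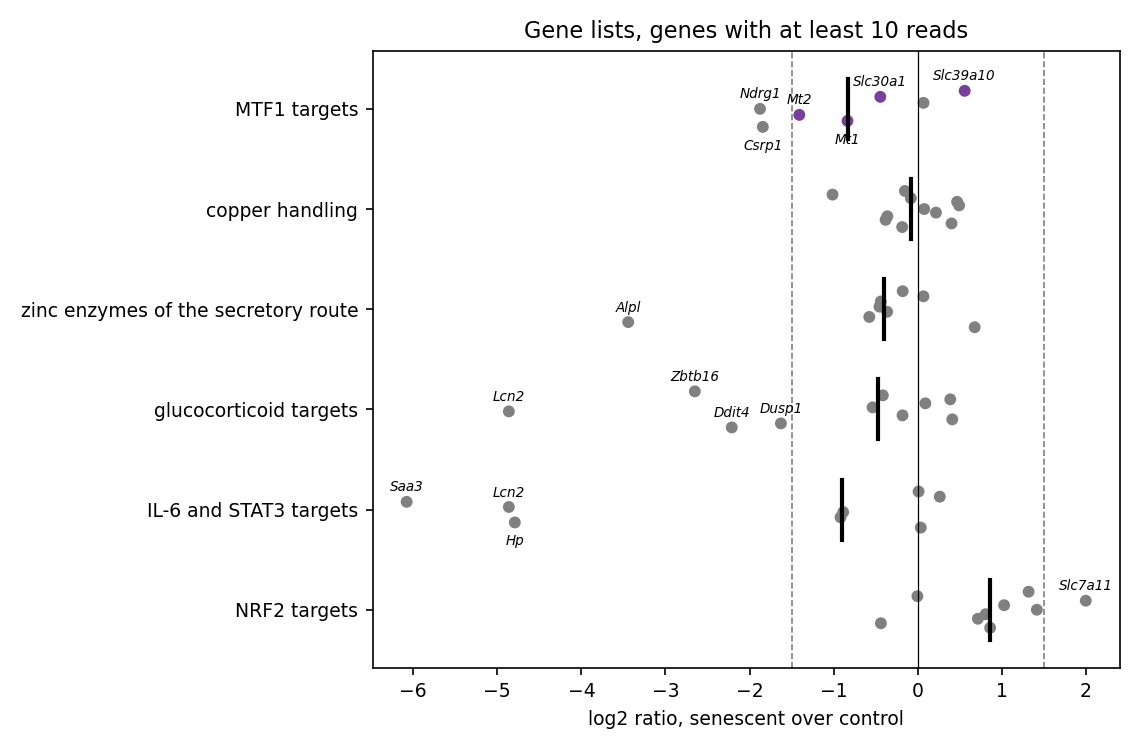
Log2 ratio of senescent over control for the genes of 6 lists with at least 10 reads; each point is a gene (purple for the genes described here), the bar is the median of the list and dashed lines mark 1.5 in size. The median is -0.84 for MTF1 targets, which is the value of Mt1. It is -0.48 for glucocorticoid targets, -0.90 for IL-6 and STAT3 genes and 0.86 for NRF2 targets.

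Markers of other liver cells were low, apart from those of the bile duct. Of 4 cholangiocyte markers, Krt19 had 22885 control and 19177 senescent reads, Krt7 had 3248 and 1026 (log2 ratio -1.43), Sox9 had 3602 and 4454 (log2 ratio 0.54) and Epcam 0 and 1. The summed level of 6 macrophage markers was 2.65 scaled CPM for control and 6.29 for senescent cells, with Adgre1 and Clec4f at 0 in both. Of the 3 macrophage markers with at least 10 reads, 2 were called higher, where 2.71% of all genes were. They were Ptprc with 27 and 76 reads (log2 ratio 1.68) and Csf1r with 15 and 40 (log2 ratio 1.58). Cd68 had 34 and 40 reads and was not called (log2 ratio 0.45, -0.23 to 1.17). For 6 stellate cell or fibroblast markers the sums were 0.929 and 0.363, with Col1a2 at 0 in both and Col1a1, called lower, at 21 reads and 1 read, and for 4 endothelial markers they were 0.172 and 0.484. These sums lie far below the 538 and 302 scaled CPM of Mt1. The part of the difference in Alb and Apoa1, given above, in the values of the zinc genes was not tested.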

How the data were processed

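RNAseq of control and senescent AML12 cells was analysed from 1 library per condition, each of RNA pooled from 3 samples. The authors deposited a raw count of reads per gene, listed by Ensembl identifier. Libraries were made, per the labels, from mRNA selected on poly-T beads, with random hexamers as primers. The submitters' processing notes name CASAVA, STAR, DESeq2, edgeR and mm10, without versions; the counting tool, the annotation and the use of strand are not given in the sources used here. The initials of the sample titles gave the condition of each table column. Of 35275 genes, 34490 (97.8%) were paired with a symbol in GENCODE M21 (GRCm38), and the rest held 0.113% (control) and 0.109% (senescent) of the reads.

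Counts were scaled with TMM in edgeR 4.0.16 (R 4.3.3), with factors of 1.04 and 0.964, and log2 ratios were formed with a prior count of 1. Intervals of a log2 ratio are 95% Clopper-Pearson intervals, and a share is given with its exact binomial interval. Intervals of a difference between log2 ratios, and those with an assumed coefficient of variation, rest on a normal approximation. Apart from the assumed coefficient of variation, all cover counting error only, since the reads carry no molecular identifiers. Genes needed at least 10 reads over both libraries, and 3 reads were taken as the floor. No p-value is given, as 1 library per condition allows no replicate check. Levels between genes are scaled CPM per kilobase of merged exons. Promoter windows came from RefSeq (GRCm38.p6), and shared sequence was found with blastn 2.17.0. Alternatives were scaling by total counts, by upper quartiles or with DESeq2 1.42.0, other filters, prior counts, thresholds and assumed coefficients of variation. Python 3.11.15, numpy 2.4.6, pandas 2.3.3, scipy 1.17.1 and matplotlib 3.10.9 were used, and the steps were tested on simulated data.

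The 9 genes and all lists were chosen with earlier results of these data known. Genes named are the 9, and every metallothionein, Slc30a and Slc39a gene. Of each other list, up to 4 genes with the largest ratio among those with at least 100 reads were named. Also named were genes with their whole body within 100 kb of the metallothionein cluster. The 3 genes nearest in ratio to Mt1 and to Mt2 were named as well. Other genes given with values (Selenow, Fkbp5, Sgk1, Stat3, Socs3, Il6st, Gclm, Atp7b, Pign, several markers and genes that overlap the 9 or Slc39a7) were chosen after their values were seen. The assumed coefficient of variation for single genes and the principal transcript length were also chosen after seeing the data.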

Additional observations from a re-analysis of the deposited data

How the results depend on the processing

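No paired analysis was possible because each condition has 1 library, and for the same reason no replicate could be left out. Some recomputed values could not move, such as the log2 ratio of a member under another read filter. Of all recomputed values, 323 stayed within their counting interval or within 1.5 times their count, and 23 moved. Scaling by total counts moved most of these, since it shifts the median of all genes by -0.11. Under it the log2 ratio was -0.94 for Mt1, -1.52 for Mt2, -0.23 for Slc30a5, -0.015 for Slc30a7, 0.45 for Slc39a10 and -0.42 for Slc39a14, and the median was -0.23 over the Slc30a genes and -0.085 over the Slc39a genes. Slc30a7 thus changed side, within its counting error, and so did the Slc39a median, which was -0.017 with upper quartiles. With total counts Mt2 alone of the 9 was called lower, so that 1 of the 9 genes passed the threshold, as with a threshold of 1. The other scalings left every one of the 9 genes on its side of 0. Both MTF1 targets called lower lost the call at a threshold of 2 and Mt2 joined them at a threshold of 1; NRF2 targets called higher numbered 4 at a threshold of 1, 0 at a threshold of 2 and 2 with a prior count under 1. The call of Slc30a2 was lost, leaving 0 ZnT genes, with at least 100 reads, with a prior count of 5 and with an assumed coefficient of variation of 0.4. Over all genes, 390 were called higher and 805 lower; the counts were 732 and 1435 at a threshold of 1, 219 and 460 at a threshold of 2, and 141 and 395 with at least 100 reads. Depth limits the rarely read genes of the families, such as Slc30a2 and Slc39a8, and not the 9 genes, for which the unmeasured spread between cultures is the limit.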

Other observations

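Copper is the other metal that metallothioneins buffer. Of 11 genes of copper uptake, export and delivery, none was called higher or lower (2.71% and 5.6% of all genes), and the median log2 ratio was -0.08. Counting intervals placed 2 of the 11 above 0 and 5 below, and Slc31a2 was called lower at a threshold of 1. Slc31a2, which encodes the copper transporter CTR2, was the lowest, with 690 control and 291 senescent reads and a log2 ratio of -1.01 (-1.22 to -0.82). Sco1, an assembly factor of cytochrome c oxidase, was the highest, with 522 and 626 reads and a log2 ratio of 0.49 (0.32 to 0.66). Atp7a and Atp7b, the copper exporting ATPases, had log2 ratios of 0.40 (0.27 to 0.53) and -0.38 (-0.50 to -0.27).

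Enzymes that take their zinc in the secretory route, where ZnT5 and ZnT7 deliver it, were read as a list of 9, of which 8 reached 10 reads. Of these 1 was called lower and none higher (5.6% and 2.71% of all genes), and the median log2 ratio was -0.40. Alpl, tissue-nonspecific alkaline phosphatase, was the one called, with 253 control and 19 senescent reads and a log2 ratio of -3.44 (-4.26 to -2.83). Enpp1, a pyrophosphatase, had 933 and 533 reads and a log2 ratio of -0.58 (-0.73 to -0.42). Of 3 enzymes of GPI anchor synthesis, Pigg had a log2 ratio of -0.44 (-0.64 to -0.24), Pigo of -0.18 and Pign of 0.07.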
